A study of Mus musculus with 14 samples.

Results

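The B-cell receptor complex and its coreceptors were followed here through 9 genes, Cd79a, Cd79b, Cd22, Cd72, Cr2, Ms4a1, Blk, Btk and Blnk, listed by symbol and found by NCBI gene ID among the 17890 genes of the deposited table. All 9 were present, with 29 RefSeq transcripts between them, and all 9 had enough counts to be tested. The 4 D libraries came from bone marrow cultures of mice made diabetic with streptozotocin, which destroys insulin-producing beta cells, given in 5 daily intraperitoneal injections of 42 to 45 mg/kg, with a non-fasted blood glucose above 16.9 mmol/L as the criterion and 6 weeks of hyperglycaemia before the marrow was taken. A fast of 12 h is also recorded for the D samples and not for the M samples. The 4 M libraries were matched to the cultures of healthy control mice. What all 8 cultures shared was the kind of donor, male C57BL/6J mice aged 8 weeks at allocation, and 7 days in medium with 5 mmol/L glucose and M-CSF, the growth factor that drives macrophage formation. The letter M is not defined in the labels and was assigned because it was the remaining group, so each direction reads D relative to M and would turn round were the letters to mean the reverse. Each library held 19048195 to 20027967 estimated counts, and nothing in the labels says that every library had its own donor, so the spread behind each p-value is that between samples and could be technical. The 6 samples of the second phase, 3 diabetic-trained and 3 untrained, were not analysed here.

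The B-cell antigen receptor is a membrane immunoglobulin that cannot signal by itself. It is held with a heterodimer of CD79A and CD79B, whose cytoplasmic tails are phosphorylated by Src-family kinases and then recruit the kinase SYK; the adaptor BLNK brings BTK and phospholipase C gamma 2 to the activated complex. Coreceptors set the strength of that signal: CD22 and CD72 carry inhibitory motifs that recruit phosphatases, whereas CD21, the product of Cr2, binds complement-coated antigen and lowers the threshold. Most of these genes are used mainly by B-lineage cells, which bone marrow makes. Btk is used in myeloid cells as well.

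Promoter sequences of 6 of the 9 genes were in the RefSeq promoter table of GRCm38.p6 (Cd79a, Cd22, Cd72, Cr2, Btk and Blnk). The 250 bases upstream of the start are shown for 3 genes that were far lower in the D libraries (Cd79a, Cd72 and Blnk) and for Btk and Cr2, which were not. They are written 5′ to 3′ on the strand of the gene. Capitals mark matches, on either strand, to 4 motifs of B-lineage transcription factors: the ETS core AGGAAGT, the octamer ATTTGCAT, the EBF palindrome (TCCC and GGGA 2 bases apart) and the E-box CAGGTG.
Cd79a (chr7:24897247-24897496, plus strand): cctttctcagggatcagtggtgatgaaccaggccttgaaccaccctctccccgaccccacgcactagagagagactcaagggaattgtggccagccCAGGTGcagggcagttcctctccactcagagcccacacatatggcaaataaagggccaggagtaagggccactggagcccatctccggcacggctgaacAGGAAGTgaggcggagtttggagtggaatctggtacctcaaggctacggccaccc
Cd72 (chr4:43454627-43454876, minus strand): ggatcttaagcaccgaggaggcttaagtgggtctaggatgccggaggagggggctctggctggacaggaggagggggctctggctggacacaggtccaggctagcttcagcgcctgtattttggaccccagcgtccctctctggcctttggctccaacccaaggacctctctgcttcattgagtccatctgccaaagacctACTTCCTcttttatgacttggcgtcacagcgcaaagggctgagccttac
Blnk (chr19:40994222-40994471, minus strand): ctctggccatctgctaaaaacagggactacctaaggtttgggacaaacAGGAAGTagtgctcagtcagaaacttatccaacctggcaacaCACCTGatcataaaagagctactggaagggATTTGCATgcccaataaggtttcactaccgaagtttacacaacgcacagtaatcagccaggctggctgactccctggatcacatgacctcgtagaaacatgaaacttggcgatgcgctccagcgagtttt
Btk (chrX:134583141-134583390, minus strand): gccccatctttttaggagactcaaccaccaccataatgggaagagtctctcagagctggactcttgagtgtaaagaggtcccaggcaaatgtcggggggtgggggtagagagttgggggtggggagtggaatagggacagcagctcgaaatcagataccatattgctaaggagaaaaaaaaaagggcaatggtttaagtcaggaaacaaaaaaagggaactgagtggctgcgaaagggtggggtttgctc
Cr2 (chr1:195176720-195176969, minus strand): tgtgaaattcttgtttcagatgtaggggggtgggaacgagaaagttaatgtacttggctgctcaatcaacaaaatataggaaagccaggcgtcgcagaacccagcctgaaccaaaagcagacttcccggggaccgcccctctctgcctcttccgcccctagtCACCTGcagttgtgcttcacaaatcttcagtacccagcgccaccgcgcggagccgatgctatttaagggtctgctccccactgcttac
In Cd79a an ETS core began 55 bases and an E-box 154 bases upstream of the start. The Cd72 window held 1 ETS core on the opposite strand, 49 bases upstream. Blnk held 3 of the 4 motifs, the ETS core at 202 bases, the E-box at 160 bases on the opposite strand and the octamer at 130 bases. The Cr2 window held 1 E-box on the opposite strand, at 88 bases, and the Btk window held none of the 4. In Cd22, which is not printed, the EBF palindrome lay 49 bases upstream, where it reads as a match on both strands, and an E-box on the opposite strand lay 245 bases upstream. No match overlapped another motif. For comparison, windows of the same length held the ETS core in 7.69%, the octamer in 1.6%, the EBF palindrome in 0.779% and the E-box in 17.2% of 32851 promoters. A match describes letters and not a bound site. The starts of Cd22, Cd72, Cr2 and Btk in that table lie inside the longest annotated span of the gene.

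Expression of 8 of the 9 genes was lower in the D than in the M libraries and none was higher (edgeR's quasi-likelihood test, Benjamini-Hochberg adjusted p under 0.05 over 12839 genes). Of all genes tested, 17.3% were called lower and 17.4% higher, 34.7% in either direction. The 9 genes were chosen with earlier results of these data known, so that comparison is a description. None of the 9 was higher by an unadjusted p under 0.05, by DESeq2 or by limma either. In all 8, every D library lay below every M library, as it did in 18.4% of all genes, while 16.3% of all genes had every D library above. The chains Cd79a and Cd79b, the coreceptors Cd22 and Cd72, Ms4a1, Blk and Blnk were each called and at least 4-fold lower, a combination met by 1.32% of genes tested. For Cd22 it came under 4-fold, still called, with curated transcripts only (2.45-fold), without D replicate 3 (3.92-fold) and without D replicates 1 and 3 (3.54-fold). The median log2 fold change was -2.78 over the 9 genes and -0.03 over all genes. Btk was lower by a small margin and Cr2 was not called. These are bulk cultures, in which fewer B-lineage cells and less RNA per cell cannot be told apart. Markers of other cell types, given further on, also differed between the groups, some lower and some higher, and their part in the differences was not tested. Scaling by library totals, without TMM factors, shifted the median of all genes by -0.10 on the log2 scale, and the share of higher genes among those called was then 31.3%, against 50.1% with TMM. Limma on TPM gave a share of 33.1% to 33.3%. All 8 calls held under these scalings.

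Cd79a (NCBI gene 12518, chr7:24897497-24901858, plus strand, GRCm38.p6) encodes the Ig-alpha signalling chain. It had 36.1, 36.4, 16.8 and 51.9 CPM (counts relative to the TMM-scaled library size) in D replicates 1 to 4, against 304, 222, 279.6 and 230.2 CPM in M replicates 1 to 4. The highest D library was far under the lowest M library. The means were 35.3 ± 14.4 CPM in D and 259 ± 39.4 CPM in M libraries (SD, n = 4 each), a log2 fold change of -2.87 ± 0.30 (SE; edgeR, adjusted p = 0.000393) or 7.33-fold lower. Its raw estimated counts were 304 to 996 in D libraries and 4443 to 6226 in M libraries. Cd79b (gene 15985, chr11:106311341-106314562, minus strand) encodes the partner chain, Ig-beta. It had 32.7, 29.6, 12.9 and 39.4 CPM in D libraries, against 324, 238, 304 and 242 CPM in M libraries. The extreme libraries were those of Cd79a, D replicate 3 being the lowest and D replicate 4 the highest of their group, and M replicate 1 the highest and M replicate 2 the lowest of theirs. Cd79b averaged 28.7 ± 11.3 CPM in D and 277 ± 43.5 CPM in M libraries (SD, n = 4 each), 9.64-fold lower (log2 -3.27 ± 0.31; edgeR, adjusted p = 0.000229).

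Among the coreceptors, Cd72 fell furthest. Cd72 (gene 12517, chr4:43447724-43455102, minus strand) is a C-type lectin whose tail recruits an inhibitory phosphatase. It had 20.2, 16.4, 8.16 and 27.1 CPM in D libraries, against 299, 182, 236 and 184 CPM in M libraries. The means of 17.99 ± 7.91 CPM in D and 225 ± 55.3 CPM in M libraries (SD, n = 4 each) differed 12.5-fold (log2 -3.64 ± 0.35; edgeR, adjusted p = 0.000248), and 24 of the 12839 tested genes had a lower log2 fold change. Cd72 overlaps Tesk1 on the opposite strand, and whether counting used strand is not given in the sources used here, so reads of the pair may be mixed. The annotated opposite-strand neighbours within Cd22, Ms4a1 and Btk (Gm29439, 4930526L06Rik and Gm15154) were not analysed here. Tesk1, a protein kinase gene, was itself lower, at 12.6 ± 1.72 CPM in D and 26.4 ± 5.12 CPM in M libraries (SD, n = 4 each; log2 -1.06 ± 0.14; edgeR, adjusted p = 0.000501). Cd22 (gene 12483, chr7:30865404-30880342, minus strand), a sialic acid-binding lectin that recruits the phosphatase SHP-1, had 11.3, 15.4, 6.95 and 15.6 CPM in D libraries, against 60.9, 47.3, 61.3 and 53.4 CPM in M libraries. The groups were again well apart. Its means were 12.3 ± 4.08 CPM in D and 55.7 ± 6.71 CPM in M libraries (SD, n = 4 each), 4.52-fold lower (log2 -2.18 ± 0.22; edgeR, adjusted p = 0.000160). That size depended on the transcripts counted, being -1.29 on the log2 scale with curated transcripts only and -3.08 with the most abundant transcript, where Cd79a stood at -2.89 (edgeR, adjusted p = 0.0143 and 0.00107 for Cd22). The Cd72 log2 fold change was -4.28 with the most abundant transcript.

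Cr2 (gene 12902, chr1:195136811-195176880, minus strand), which in mice encodes the complement receptors CD21 and CD35, did not follow the other coreceptors. It had 3.07, 5.46, 2.096 and 5.58 CPM in D libraries, against 3.32, 3.65, 4.91 and 4.22 CPM in M libraries. The D libraries included both the lowest and the highest value, and the groups overlapped. The means were 4.05 ± 1.74 CPM in D and 4.02 ± 0.696 CPM in M libraries (SD, n = 4 each), with a log2 fold change of 0.01 ± 0.29 (edgeR, adjusted p = 0.976) and a 95% interval of -0.62 to 0.64. Its counts were 38 to 107 per D library and 68 to 98 per M library, the fewest of the 9 genes. The sign of the Cr2 difference turned with the scaling, so no direction is given. A fold change as large as that of Cd22 lies outside its interval.

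Ms4a1 (gene 12482, chr19:11249679-11266149, minus strand) encodes CD20, a B-cell surface protein involved in calcium entry after receptor engagement. It had 13.4, 17.5, 8.27 and 21.5 CPM in D libraries, against 105, 103, 121 and 89.6 CPM in M libraries. The means of 15.2 ± 5.66 CPM in D and 105 ± 12.9 CPM in M libraries (SD, n = 4 each) differed 6.88-fold (log2 -2.78 ± 0.25; edgeR, adjusted p = 0.000145). Blk (gene 12143, chr14:63372837-63417187, minus strand), the Src-family kinase of the B lineage, had 12.0, 12.3, 4.63 and 17.5 CPM in D libraries, against 93.9, 70.6, 89.4 and 72.4 CPM in M libraries. Its spread in the D group was the widest of the 9 genes, the highest library being 3.78 times the lowest, yet every D library was under every M library. Blk averaged 11.6 ± 5.29 CPM in D and 81.6 ± 11.8 CPM in M libraries (SD, n = 4 each), 7.01-fold lower (log2 -2.81 ± 0.32; edgeR, adjusted p = 0.000568).

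Blnk (gene 17060, chr19:40928927-40994221, minus strand), the adaptor that links SYK to BTK and phospholipase C gamma 2, had 23.5, 15.5, 7.06 and 22.1 CPM in D libraries, against 109.7, 81.0, 94.8 and 80.7 CPM in M libraries. It was the only one of the 7 strongly lower genes whose highest D value was in replicate 1. The means were 17.0 ± 7.52 CPM in D and 91.6 ± 13.8 CPM in M libraries (SD, n = 4 each), 5.36-fold lower (log2 -2.42 ± 0.32; edgeR, adjusted p = 0.00110). Btk (gene 12229, chrX:134542334-134583628, minus strand), the Tec-family kinase of B and myeloid cells, had 133, 133, 134 and 130.4 CPM in D libraries, against 158, 154, 156 and 149.9 CPM in M libraries. Libraries of a group were within 1.03-fold of each other in D and 1.06-fold in M, so a small difference still separated the groups. Btk averaged 133 ± 1.54 CPM in D and 155 ± 3.66 CPM in M libraries (SD, n = 4 each), 1.17-fold lower (log2 -0.22 ± 0.06, 95% interval -0.34 to -0.10; edgeR, adjusted p = 0.0112). Without D replicate 4 the call was lost (log2 -0.19, edgeR adjusted p = 0.0613). Over the alternatives the Btk log2 fold change ran from -0.33 to -0.19. The other 7 calls held with each library left out.

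**Figure D1:**
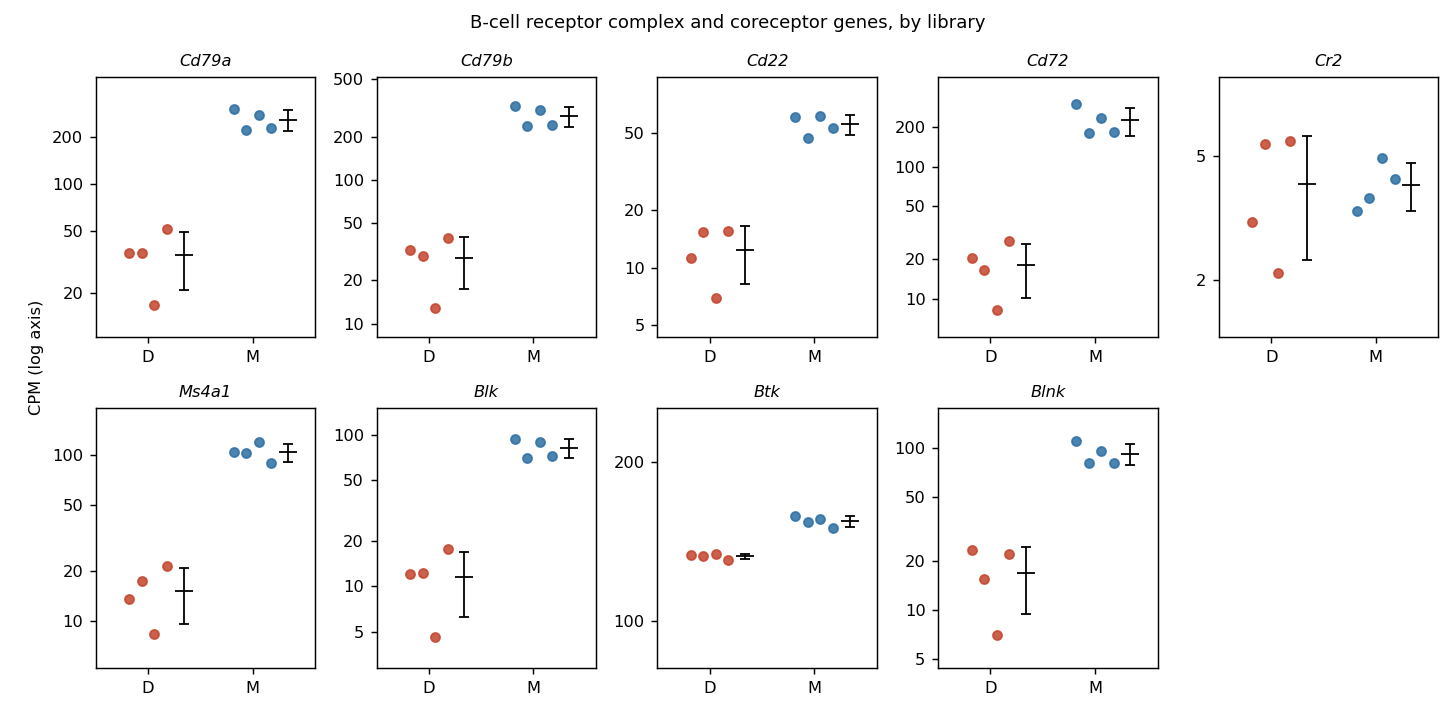
CPM of the 9 genes on log axes, 1 panel a gene with its own range, red points for the 4 D (diabetic) libraries and blue points for the 4 M (matched to healthy) libraries in replicate order from left to right, with bars for mean ± SD. Every D point is under every M point in 8 panels, by a wide gap in 7 of them and a narrow one for Btk, and the groups overlap for Cr2.

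The D libraries differed from each other in a pattern shared by most of the genes. D replicate 3 was lowest in 8 of the 9, all but Btk, and D replicate 4 was highest in 7. The highest value in the M group fell in replicate 1 for 6 genes and in replicate 3 for the other 3. For Cd79a the coefficient of variation was 40.8% in D and 15.2% in M libraries, and for Btk it was 1.16% in D and 2.36% in M libraries. In D libraries Cd72 stood at 7.99%, Cd79b at 10.4%, Cd79a at 13.6%, Blk at 14.2%, Ms4a1 at 14.5%, Blnk at 18.6%, Cd22 at 22.1% and Btk at 85.7% of the M mean CPM. Leaving out D replicates 1 and 3, the pair of D libraries that differed most by a chi-square per gene (66.3), a choice made after the data were seen, kept the count at 8 lower of 9.

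Levels were compared between genes as TPM, the authors' values scaled by transcript length. In D libraries the order was Btk at 95.4 ± 3.48, Cd79a at 66.8 ± 27.7, Cd79b at 43.8 ± 17.8, Cd72 at 22.4 ± 10.1, Blnk at 17.8 ± 8.12, Ms4a1 at 9.32 ± 3.56, Blk at 8.63 ± 3.99, Cd22 at 5.90 ± 2.09 and Cr2 at 1.14 ± 0.470 TPM (SD, n = 4). Each neighbour in that order overlapped the next over the 4 libraries, except Cd22 and Cr2. In M libraries the order was Cd79a at 518 ± 72.9, Cd79b at 446 ± 65.7, Cd72 at 299 ± 67.1, Btk at 118 ± 2.56, Blnk at 101 ± 13.5, Ms4a1 at 68.1 ± 8.89, Blk at 64.0 ± 8.71, Cd22 at 28.6 ± 3.36 and Cr2 at 1.24 ± 0.226 TPM (SD, n = 4). There the ranges overlapped between Cd79a and Cd79b, between Cd79b and Cd72, between Btk and Blnk and between Ms4a1 and Blk, and not between the other neighbours. Btk therefore stood at rank 1 in D and at rank 4 in M libraries, and the other 8 genes kept their order.

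Whether the genes differed by the same factor was asked within each library, by dividing the TPM of each by that of Cd79a. Such a ratio does not depend on how libraries are scaled, but the 8 ratios share Cd79a and are not independent. An exact two-sided permutation test over the 4 D and 4 M libraries has 70 splits and cannot give a p below 0.0286. Of the 8 ratios, 6 reached that smallest p (0.0381 after Benjamini-Hochberg adjustment over the 8), with no overlap between the groups. That test exchanges libraries freely. With same-numbered libraries kept as 4 pairs there are 16 sign flips and the smallest two-sided exact p is 0.125, so no ratio could be called in that form. All 4 pairs had the same direction for each of the 6 ratios. Cd79b had 0.731, 0.656, 0.621 and 0.615 of the Cd79a TPM in D libraries, against 0.858, 0.864, 0.877 and 0.846 in M libraries, a log2 difference of -0.40. The 2 chains of the heterodimer were thus near a constant ratio within the M group and lower, with more spread, in the D group. Cd72 had 0.368, 0.298, 0.313 and 0.344 in D libraries, against 0.653, 0.549, 0.562 and 0.531 in M libraries, a log2 difference of -0.79. Both Cd79b and Cd72 thus had less RNA in D libraries relative to Cd79a.

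The ratio of Cd22 to Cd79a went the other way, with 0.0806, 0.108, 0.102 and 0.0756 in D libraries, against 0.0517, 0.0546, 0.0559 and 0.0593 in M libraries, a log2 difference of 0.71. It was 1.63 with curated transcripts only and turned to -0.18 when each gene was counted by its most abundant transcript, and the cause of that turn was not tested. Blnk had 0.358, 0.234, 0.232 and 0.235 in D libraries, against 0.198, 0.201, 0.186 and 0.193 in M libraries, a log2 difference of 0.42. D replicate 1 stood well above the other D libraries for Blnk. For Btk the ratio was 1.41, 1.40, 3.06 and 0.962 in D libraries, against 0.199, 0.266, 0.214 and 0.249 in M libraries, a log2 difference of 2.75. For Cr2 it was 0.0130, 0.0221, 0.0194 and 0.0154 in D libraries, against 0.00169, 0.00249, 0.00265 and 0.00284 in M libraries, a log2 difference of 2.85 (3.53 with curated transcripts only). Both of these genes changed little or were not called, so their ratios mostly carry the fall of Cd79a.

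The ratios of Ms4a1 and Blk overlapped between the groups. Ms4a1 had 0.121, 0.156, 0.161 and 0.135 of the Cd79a TPM in D libraries, against 0.112, 0.151, 0.141 and 0.127 in M libraries (log2 difference 0.11; exact permutation p = 0.457, adjusted 0.522). Blk had 0.131, 0.132, 0.108 and 0.132 in D libraries, against 0.121, 0.125, 0.126 and 0.124 in M libraries (log2 difference 0.02; exact permutation p = 0.857). The M values of Blk lay within a narrow band, and D replicate 3 alone was below it. A p that misses the threshold does not show that Blk and Cd79a differed by the same factor, and without D replicate 3 the Blk ratio was higher in D libraries by 0.09 on the log2 scale (exact permutation, adjusted p = 0.0327).

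**Figure D2:**
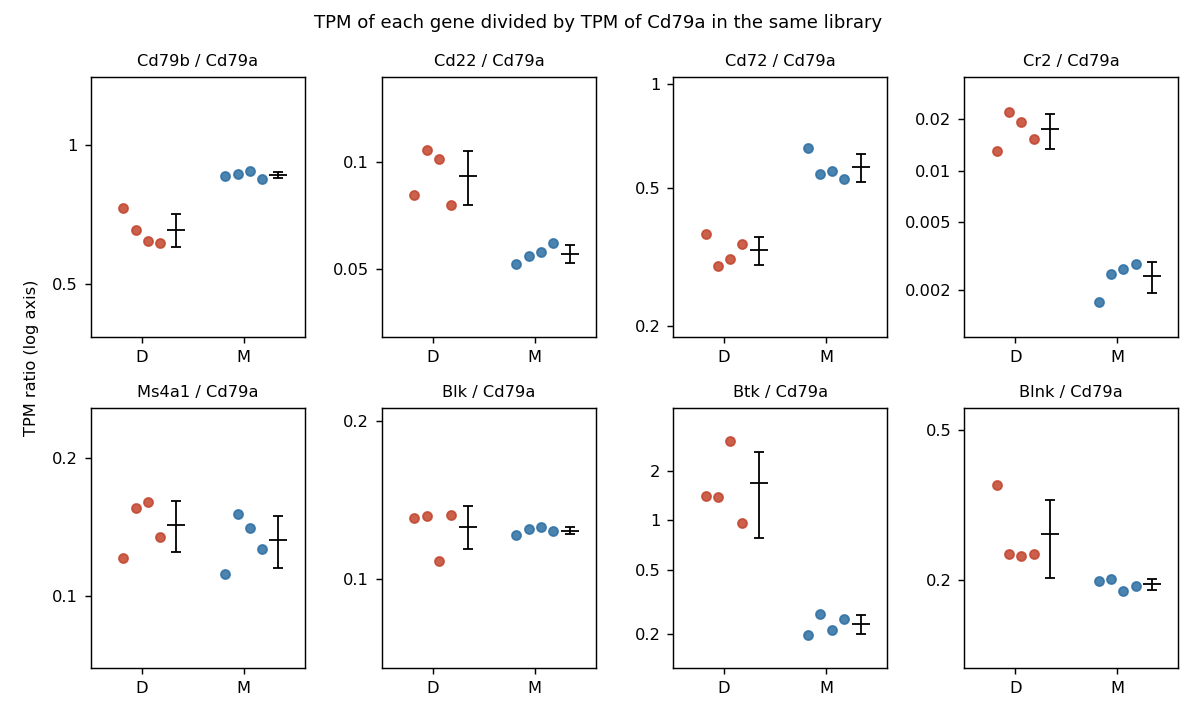
TPM of each of 8 genes divided by that of Cd79a in the same library, on log axes with a range of their own, red for D and blue for M libraries in replicate order, bars for mean ± SD. Cd79b and Cd72 sit lower in D libraries, Cd22, Cr2, Btk and Blnk sit higher, and Ms4a1 and Blk overlap.

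The table holds estimated counts for 29 transcripts of these genes. Of 22 that could be tested 10 were called lower and 0 higher, where 1.8% of 32312 transcripts were called lower and 2.28% higher. Transcript values are estimates in which reads of overlapping isoforms are divided, so they vary more than gene sums. With the replicate number as a block, 2 were called, and with single libraries left out 4 to 11 were (4 without D replicate 2 and 5 without any 1 of the M libraries). At least 1 transcript was called for Blk, Blnk, Cd22, Cd72, Cd79a, Cd79b and Ms4a1. In Cd79b, NM_008339 carried 91.6% to 100% of the gene's TPM in D libraries and 98.1% to 100% in M libraries, with a log2 fold change of -3.30 ± 0.33 (edgeR, adjusted p = 0.00762). In Btk, NM_013482 carried 93.7% to 97.3% of the gene in D libraries and 91.9% to 94.7% in M libraries, and 3 predicted transcripts held the rest. NM_013482 itself was not called (log2 -0.19 ± 0.04, edgeR adjusted p = 0.0625).

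Cd72 was spread over 9 transcripts. NM_007654 took 46.6%, 34.8%, 33.1% and 54.9% of the gene's TPM in D libraries, against 13.2%, 18.1%, 20.8% and 24.5% in M libraries. Its share was higher in every D library than in any M library, as a description with no test. NM_001110322 took 10.1%, 23.3%, 0% and 5.20% in D libraries, against 19.9%, 24.3%, 19.5% and 25.3% in M libraries. In D replicate 3, where the gene had 148 counts in all, NM_001110320 was given 60.5% of the TPM, and NM_001110321, the leading transcript of every M library, was at 0%. Of the Cd72 transcripts 3 were called lower, NM_007654 (log2 -2.36), NM_001110322 (log2 -4.76) and XM_030253130 (log2 -3.69), with edgeR adjusted p of 0.0448, 0.0389 and 0.0246. In Cd22, 2 predicted transcripts were called, XM_006539493 (log2 -3.07; edgeR, adjusted p = 0.00762) and XM_030242043 (log2 -2.35; edgeR, adjusted p = 0.0234). The curated NM_009845 was not called (log2 -0.84 ± 1.23; edgeR, adjusted p = 0.894).

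**Figure D3:**
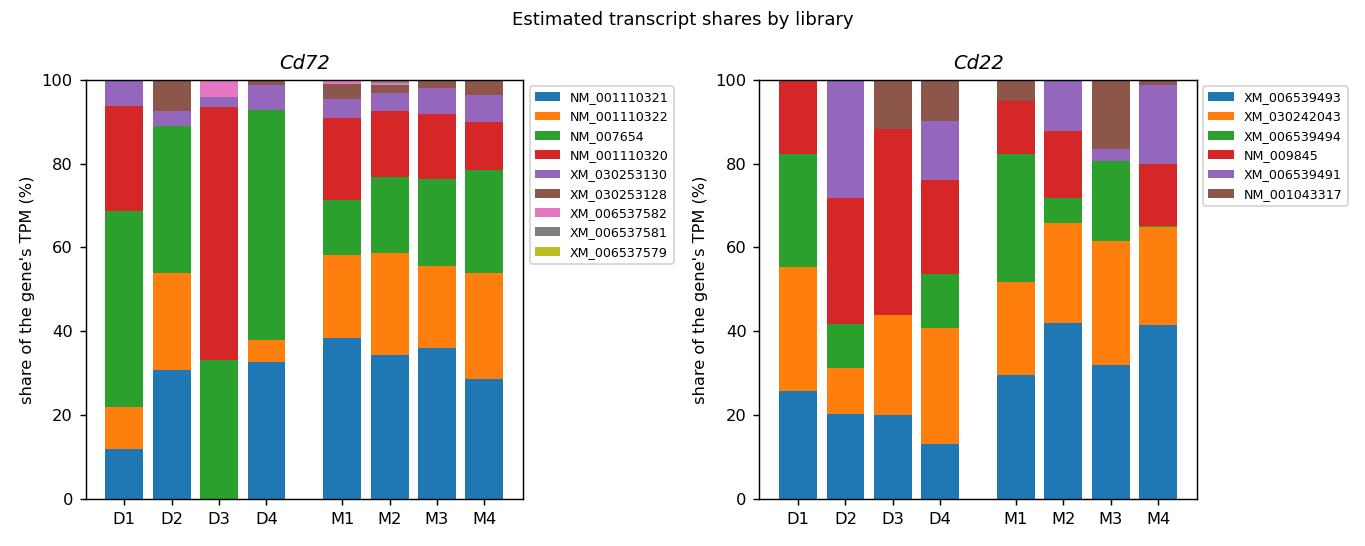
Share of the gene's TPM given to each transcript of Cd72 and Cd22, stacked to 100% by library, D libraries left and M libraries right. The M bars of Cd72 resemble each other, while the D bars differ, with NM_007654 at 33.1% to 54.9% and NM_001110320 absent from D replicates 2 and 4.

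Genes around the receptor went both ways, beside 17.3% lower and 17.4% higher over all genes tested. Of 31 further pathway genes, all tested, 8 were lower, 5 higher and 18 not called, with a median log2 fold change of -0.02. Scaled by library totals, 11 were lower and 4 higher, and the 5 higher became 3 without M replicate 4 and 2 with curated transcripts. Among 21 that carry or amplify the signal, 6 were lower and 3 higher. Vav2, a guanine nucleotide exchange factor, was lower (log2 -1.81 ± 0.15; edgeR, adjusted p = 3.18e-05), and so was Pik3ap1, the adaptor that brings phosphoinositide 3-kinase to the complex (log2 -0.57 ± 0.09; edgeR, adjusted p = 0.00138). Bcl10, a subunit of the complex that activates NF-kB downstream of the receptor, was higher, at 155 ± 12.3 CPM in D and 113 ± 6.46 CPM in M libraries (SD, n = 4 each; log2 0.45 ± 0.07; edgeR, adjusted p = 0.00155).

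Among 10 genes that restrain the receptor, 2 were lower and 2 higher, with a median of -0.02. Those counts are near the shares over all genes, 17.3% lower and 17.4% higher. Siglecg, an inhibitory sialic acid-binding lectin of B cells, had 24.1 ± 5.84 CPM in D and 130 ± 19.9 CPM in M libraries (SD, n = 4 each; log2 -2.43 ± 0.18; edgeR, adjusted p = 3.18e-05). Ptpn22, a phosphatase that acts on Src- and Syk-family kinases, was higher, with 70.4 ± 10.1 CPM in D and 42.5 ± 1.95 CPM in M libraries (SD, n = 4 each; log2 0.73 ± 0.10; edgeR, adjusted p = 0.000482).

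Close relatives of the kinases and of Cd22 that other blood cells use moved both ways, with more genes higher than lower in each family. Among all genes tested 17.3% were lower and 17.4% higher. Of 7 other Src-family kinases, among them Lyn and Fyn of the pathway list, 2 were lower and 4 higher, with a median of 0.35. Fgr, a kinase of myeloid cells, was higher by 0.79 ± 0.13 on the log2 scale (edgeR, adjusted p = 0.00122). Lyn, which B and myeloid cells both use, was higher by 0.35 ± 0.09 (edgeR, adjusted p = 0.0159), a call lost with curated transcripts only (0.11; adjusted p = 0.554) and without M replicate 4 (0.33; adjusted p = 0.0507). Fyn was lower (log2 -0.57 ± 0.13; edgeR, adjusted p = 0.00843), and so was Src (log2 -1.52 ± 0.19; edgeR, adjusted p = 0.000334), the Src call being lost when only curated or only the most abundant transcripts were counted, though its log2 fold change was then -2.45 and -2.46 (edgeR, adjusted p = 0.160 and 0.207). Of the 4 other Tec-family kinases 1 was lower and 3 higher, with a median of 1.18. Tec, the founding member, was lower (log2 -0.43 ± 0.07; edgeR, adjusted p = 0.00150), but its sign turned to 0.44 in the fit on the most abundant transcript alone. Txk, a kinase of T cells, was higher (log2 1.36 ± 0.23; edgeR, adjusted p = 0.00167; 0.74 with limma on log2(TPM + 1)), as was Bmx, with 81.8 ± 27.5 CPM in D and 36.6 ± 6.44 CPM in M libraries (SD, n = 4 each; log2 1.16 ± 0.24; edgeR, adjusted p = 0.00667).

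Both relatives of Blnk were higher, beside 17.4% higher and 17.3% lower over all genes. Lcp2, which encodes the adaptor SLP-76 of T and myeloid cells, had 225 ± 29.7 CPM in D and 145 ± 7.85 CPM in M libraries (SD, n = 4 each; log2 0.63 ± 0.09; edgeR, adjusted p = 0.000807). Clnk had 11, 12, 26 and 18 counts in D libraries, against 2, 1, 0 and 2 counts in M libraries, too few for a fold to be given. Of 6 other Siglec genes 2 were lower and 3 higher, with a median of 0.54. Siglecg is described with the restraining genes. Siglech, a receptor of plasmacytoid dendritic cells, was lower (log2 -1.17 ± 0.24; edgeR, adjusted p = 0.00703), a call lost with curated transcripts or the most abundant transcript alone, at -1.03 and -1.13 (edgeR, adjusted p = 0.115 and 0.0608). Siglece and Siglecf, of myeloid cells and eosinophils, were higher (log2 0.84 ± 0.13 and 0.87 ± 0.11; edgeR, adjusted p = 0.00127 and 0.000379), the Siglece call ending when the most abundant transcript was counted (0.79; adjusted p = 0.0528).

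**Figure D4:**
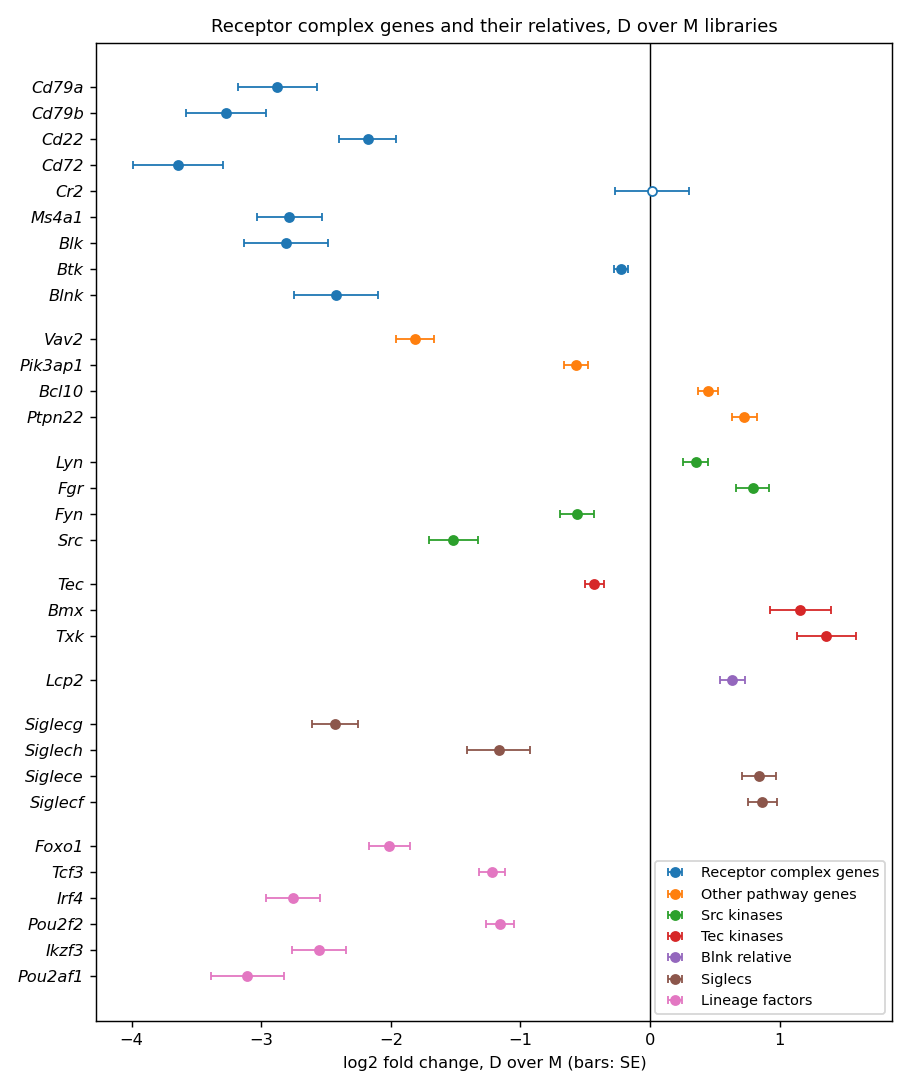
Log2 fold change, D over M libraries, with bars for SE, of the 9 genes and of pathway genes, relatives and lineage factors, colours marking the lists and an open circle a gene not called. Of the 9 genes 7 lie between -3.64 and -2.18, beside Siglecg and several lineage factors, while Btk and Cr2 lie near 0 and the kinases of other blood cells lie on both sides of it.

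Transcription factors of the B lineage were lower as a list: 12 of 14 were called lower, 1 higher and 1 not called, with a median log2 fold change of -1.61. Over all genes 17.3% were called lower and 17.4% higher. The list was chosen with earlier results of these data known, so its share is a description and not independent of them. The 6 with the lowest p were Foxo1 (-2.01 ± 0.16), Tcf3 (-1.22 ± 0.10), Irf4 (-2.75 ± 0.21), Pou2f2 (-1.16 ± 0.11), Ikzf3 (-2.55 ± 0.21) and Pou2af1 (-3.11 ± 0.28), with edgeR adjusted p between 3.18e-05 and 0.000183. The 1 factor called higher was Spi1 (log2 0.26 ± 0.08; edgeR, adjusted p = 0.0253). Pou2f2 and Pou2af1 encode OCT2 and its coactivator OBF1, which act through the octamer, and Tcf3 encodes an E-box factor. Whether any of these factors bears on the motif matches printed above was not tested. Pou2af1 had 23.0 ± 9.33 CPM in D and 198 ± 22.8 CPM in M libraries (SD, n = 4 each). With the most abundant transcript alone the Irf4 call was lost (log2 -2.01, adjusted p = 0.160) and Pou2f2 was 3.99-fold lower (adjusted p = 0.00445).

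Markers of B-cell stages were lower in part, beside 17.3% lower and 17.4% higher over all genes. Of 10 mature B-cell markers, of which 2 are also in the pathway list, 7 were lower, among them Cxcr5, Fcmr, Tnfrsf13c, Tnfrsf13b, Ly6d and Cd180, and their summed level was 430 to 510 TPM in D libraries and 1127 to 1440 TPM in M libraries. Cd37, the most abundant of them, was not called (log2 -0.10 ± 0.11; edgeR, adjusted p = 0.527). Tnfrsf13c, the receptor for the survival factor BAFF, had 5.92 ± 2.69 CPM in D and 46.0 ± 5.40 CPM in M libraries (SD, n = 4 each; log2 -2.95 ± 0.30; edgeR, adjusted p = 0.000241). Of 9 tested pro-B and pre-B markers 4 were lower, Vpreb3, Rag1, Rag2 and Il7r, and 1, Bst1, was higher. The other 4, among them Vpreb1 (log2 -0.47), Igll1 (log2 -1.07) and Dntt (log2 -0.19), were not called (edgeR, adjusted p = 0.580, 0.252 and 0.772 for these 3). The sums were 296 to 387 TPM in D and 484 to 563 TPM in M libraries. Bst1 alone made up 269 ± 15.3 TPM of the D sums and 234 ± 19.6 TPM of the M sums (SD, n = 4 each). As Bst1 was higher in D libraries, these sums understate how far the rest of the list was lower. Rag1, which cuts DNA in receptor gene assembly, had 11.2 ± 7.02 CPM in D and 135 ± 18.9 CPM in M libraries (SD, n = 4 each; log2 -3.58 ± 0.43; edgeR, adjusted p = 0.000692). The calls of Cxcr5, Cd180, Rag2 and Bst1 were each lost under at least 1 alternative. Plasma-cell markers summed to 195 to 262 TPM in D and 177 to 197 TPM in M libraries. Of 6 tested 2 were lower, 1 higher and 3 not called. Mzb1 was 1 of the 2 lower genes (log2 -1.57 ± 0.12, edgeR adjusted p = 2.04e-05). Jchain was the 1 higher gene (log2 4.84 ± 0.61, edgeR adjusted p = 0.000852), so the joining chain of secreted immunoglobulin went against the receptor genes. Jchain made up 75.4 ± 46.0 TPM of the D sums and 2.85 ± 0.627 TPM of the M sums (SD, n = 4 each). The plasma-cell sums thus carry the rise of Jchain and do not give the direction of the other markers. The list was not summed without Jchain.

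Markers of other blood cells changed too, beside 17.3% lower and 17.4% higher over all genes. The labels call the cells bone marrow-derived macrophages, and the 12 macrophage markers summed to 13172 to 19868 TPM in D and 9277 to 10876 TPM in M libraries, with 8 higher. The 12 neutrophil markers stood far above them in both groups, at 133520 to 192990 TPM in D and 129420 to 130447 TPM in M libraries, with 9 higher. Each sum rested on 1 or 2 genes. Lyz2, a lysozyme of macrophages and neutrophils, made up 90.1% to 92.5% of the macrophage sum in D and 86.7% to 88.5% in M libraries. S100a8 and S100a9, calcium-binding proteins of neutrophils and monocytes, made up 81.8% to 82.5% of the neutrophil sum in D and 85% to 86.6% in M libraries. Without these genes the macrophage list summed to 1300 to 1502 TPM in D and 1137 to 1316 TPM in M libraries, and the neutrophil list to 24301 to 34301 TPM in D and 17307 to 19453 TPM in M libraries. The neutrophil list thus stayed far above the macrophage list in every library without these genes. Ngp of the neutrophil list alone averaged 11745 TPM in D and 7732 TPM in M libraries. As the cell types share genes such as Lyz2, S100a8 and S100a9, the full sums do not rank the cell types. Sums over different genes also do not count cells. Macrophage markers Adgre1 and Csf1r were present (49.2 TPM in D and 28.3 TPM in M libraries for Adgre1, 98.1 TPM in D and 80.5 TPM in M libraries for Csf1r). Others of the list were far lower. Mertk averaged 0.30 TPM in D and 0.455 TPM in M libraries, and Mrc1 0.88 TPM in D and 0.74 TPM in M libraries. The 5 markers of basophils and mast cells were all higher, with sums of 1013 to 1617 TPM in D and 459 to 641 TPM in M libraries. Of 7 T-cell markers 4 were higher, with sums of 46.4 to 71.6 TPM in D and 48.5 to 52.9 TPM in M libraries. All 4 tested markers of plasmacytoid dendritic cells were lower, with sums of 35.3 to 115 TPM in D and 165 to 188 TPM in M libraries, but the calls of Cox6a2 and Ccr9 ended under several alternatives. No listed marker was at 0 in every library, and Vpreb2, Tnfrsf17 and Klk1 had too few counts to test. The part of these markers in the differences of the receptor genes was not tested.

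**Figure D5:**
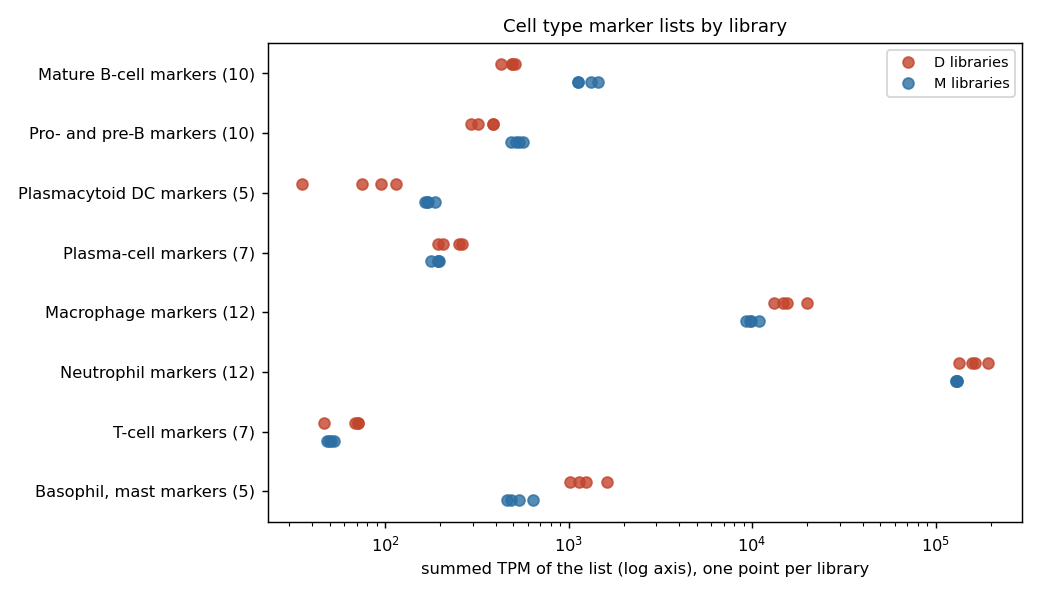
Summed TPM of each marker list on a log axis, 1 point a library, D libraries in red above M libraries in blue, with the number of genes in each list in brackets. B-cell and plasmacytoid dendritic cell lists are lower in D libraries, basophil and macrophage lists higher, and the neutrophil list is the highest in all 8 libraries.

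For each of the 9 genes the 3 tested genes with the most similar profile were found by the root mean square difference of log2 CPM over the 8 libraries, each gene centred on its own mean. Values are differences in log2 units, so a smaller one is a closer match, and with 2 groups of 4 such likeness rests mainly on the fold change. The nearest to Cd79a was Blk, at 0.0841, followed by Rasal1 at 0.0896 and Tnfrsf13c at 0.131, and the same 3 genes, with Cd79a in place of Blk, were nearest to Blk. Sbk1 at 0.0811, Dtx1 at 0.102 and Spib at 0.106 were nearest to Cd79b. Blnk was nearest to Atp1b1 (0.0969), Tmem163 (0.115) and Smtnl2 (0.151), and Ms4a1 to Ephx1 (0.146), Fcmr (0.163) and Irf4 (0.163). For Cd22 they were Rasgrp1 (0.156), St6gal1 (0.157) and Pfn2 (0.161), and for Cd72 Niban3 (0.146), Tmem108 (0.155) and Lynx1 (0.169). Btk lay nearest to Slc35a1 (0.0266), Rtf1 (0.0317) and Secisbp2 (0.0325), which differ between the groups by as little as Btk does (log2 -0.22, -0.20 and -0.25), calls that were lost for each under several alternatives. Cr2 lay nearest to C4a (0.187; reads may be split with its near-identical copy C4b), Spsb1 (0.197) and Gbp4 (0.218), none of them called (edgeR, adjusted p = 0.809, 0.668 and 0.692). Thus Cd79a and Blk were each other's nearest match, while the other genes were closest to genes outside the complex.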

How the data were processed

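Per the labels' protocols, polyadenylated RNA was sequenced as DNA nanoballs, reads were filtered with SOAPnuke 1.5.6, and the rest were aligned to mm10 with a program spelled HISTA2 2.1.0. The submitters' processing notes add GRCm38. The quantifier, the annotation release and the strand setting were not given in the sources used here. Per the file headers, the deposited table holds unnormalized estimated counts for each RefSeq transcript. In the authors' TPM values length is accounted for and each library sums to 1000000. The deposited FPKM values and the authors' normalized counts, a signal rescaled per library, were not used, nor were 8 columns of group means.

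Estimated counts of 60072 transcripts were summed to 17890 genes and rounded. Of these, 17836 had a symbol in RefSeq's gene table. The members and gene lists were chosen with earlier results of these data known. In R 4.3.3, edgeR 4.0.16 was run with TMM factors (0.913 to 1.01 in D and 1.03 to 1.05 in M libraries), filterByExpr (minimum count 10, minimum total 15), a robust quasi-likelihood fit on group and Benjamini-Hochberg adjustment at 0.05. The coefficient of biological variation was 12.4%. SE came from the F statistic. No 2 replicates agreed within sampling noise, the chi-square divided by genes being 6.49 to 66.3. TPM ratios were tested with an exact two-sided permutation test over all splits, written in Python 3.11.15 with numpy 2.4.6. The scripts were tested on simulated counts.

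Genes named were the 9 members, their 3 nearest profiles, up to 6 called pathway genes and 6 lineage factors of lowest p, any kinase, adaptor or Siglec relative, and of each cell type list the 3 of highest TPM and called B-cell markers. Tesk1, Jchain, Adgre1, Csf1r, Mertk, Mrc1 and Spi1 were named after their values were seen. Some genes that this rule names are not reported here, though the counts and sums over lists include them.

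Replicates carry the numbers 1 to 4 in both groups of the labels. Deviations of same-numbered libraries correlated at 0.115, 0.131, 0.118 and 0.182, and of other pairs at -0.178 to 0.0735. Every same-number value passed 0.1, so the numbers were taken to pair the samples, from the data and not from a stated day or litter. The main fits and the permutation test did not use that pairing, which entered only as an alternative. Alternatives were the replicate block, DESeq2 1.42.0 (size factors and test), library totals, filters of 1 and 50 counts, limma 3.58.1 on log2 TPM (minimum 1; pseudocounts 1 and 0.1), curated transcripts or the most abundant transcript only, and each library left out. Ratios were also tested with same-numbered libraries kept as pairs.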

Additional observations from a re-analysis of the deposited data

Results flagged for a closer look

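Of 34 sets of 4 library values (CPM and ratios of the members in each group) 2 had a library far from the others by Dixon's 95% criterion, and chance flags about 1 in 20 sets. The ratio of Blk to Cd79a in D replicate 3 was 0.108, under 0.131, 0.132 and 0.132 in the other D libraries. The ratio of Blnk to Cd79a in D replicate 1 was 0.358, above 0.232 to 0.235 in the other D libraries. D replicate 3 also had the lowest CPM of both Blk and Cd79a, with 84 and 304 counts.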

How the results depend on the processing

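The count of 8 members lower and 0 higher held under every scaling, test, filter and transcript choice and with the replicate block, and was 7 to 8 with single libraries left out (7 without D replicate 4, where Btk was not called). Over all genes, 3346 were lower with library totals, 1206 with curated transcripts and 978 with the most abundant transcript, and 1325 and 1114 were higher with those 2 transcript choices, 1460 and 1456 with limma on TPM (pseudocounts 1 and 0.1). With single libraries left out 1583 to 2504 were lower and 1710 to 2865 higher. Pathway genes called higher were 2 with curated transcripts and 3 with the most abundant, and 3 to 7 with libraries left out (lower 7 to 8). For relatives and lineage factors, 10 were lower with the most abundant transcript, 8 higher with curated transcripts and 6 with the most abundant, and 15 to 17 lower and 10 to 14 higher with libraries left out. The replicate block left 2 member transcripts called, and leaving out libraries 4 to 11. With same-numbered libraries kept as pairs, a choice made after the data were seen, the exact p could not fall below 0.125 and the 6 ratios kept their values without a call (Cd79b -0.40, Cd72 -0.79, Cd22 0.71, Blnk 0.42, Btk 2.75 and Cr2 2.85). The block ended no other count.

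With the most abundant transcript the Cd22 ratio turned to -0.18. The Cd72 ratio could not be computed there, as NM_001110321 was at 0 in D replicate 3, which left 7 ratios tested. Those of Cd79b (-0.42), Blnk (0.42), Btk (2.78) and Cr2 (3.14) were at the smallest p. They came to an adjusted p of 0.05 (exact permutation), no longer under the threshold. The Blk ratio ran from -0.00518 to 0.0913 with libraries left out (-0.00405 without D replicate 2). The Cr2 log2 fold change was -0.0878 with library totals, -0.0883 and -0.187 with limma on TPM (pseudocounts 1 and 0.1), -0.30 with the most abundant transcript, -0.0461 with the replicate block and -0.16 to 0.24 with libraries left out. With the most abundant transcript Tec was 0.44 and Slc35a1 0.27. Without D replicates 1 and 3, chosen after the data were seen, Spsb1 was 0.27 and Gbp4 0.15. With libraries left out Cd37 ran from -0.17 to 0.00814, C4a from -0.16 to 0.31 and Gbp4 from -0.22 to 0.0766. Of the values of single genes, 1516 kept direction and side of the threshold, 64 lost a call, 3 gained one and 16 turned. The causes were not tested. Cr2 had the fewest counts of the 9 genes, 38 to 107 per library.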
